A study of Rattus norvegicus with 24 samples.

Results

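The 6 lung samples with the letter G were compared with the 12 samples of the letters B and C as 1 reference, which is 18 of the 24 samples of a rat study of lung cancer induced with smoky coal. Samples were grouped by the letter in their titles, and the number in the title, 1 to 6, entered every test as a block, so that G1 was set against B1 and C1, and so on. Group A, with 6 samples, was left out of the comparison. All 18 samples are rat lung tissue profiled by mRNA sequencing, and all carry the same label, smoky coal. Burning this type of coal releases much polycyclic aromatic hydrocarbon. For none of the letters do the labels give a treatment, dose, time, strain, age or sex, and they do not say which letter is a control, what the numbers stand for, or whether the samples came from separate animals. Directions below are therefore those of the letters alone. With the block, p-values rest on the spread that is left between these samples after the differences between numbers are taken out.

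Polycyclic aromatic hydrocarbons bind the aryl hydrocarbon receptor (AhR), a ligand-activated transcription factor that pairs with ARNT and binds DNA at elements with the core GCGTG. It switches on enzymes that oxidize and conjugate these compounds, among them Cyp1a1, Cyp1a2, Cyp1b1 and Nqo1, and it switches on its own repressor, Ahrr, which competes with the receptor for ARNT. In the lung these genes are used as a readout of exposure to smoke and other combustion products.

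Values are normalized read counts per gene, on a scale the authors made nearly equal between samples. The summed values ranged from 61717516 to 66007148 per sample, and reads sequenced per sample are unknown. Mitochondrially encoded genes took 0.278% to 0.473% of the values. The 9 alveolar type 2 markers, which include the surfactant genes, summed to 1263440 to 1870480 in G, 1296720 to 1878760 in B and 1305200 to 1803420 in C, so the defining genes of lung tissue were present at high levels in each group. The number accounted for 68.4%, 92.3% and 55.6% of the variance along the first 3 principal components of the 18 samples, and the split of G from B and C for 1.51%, 0.00123% and 7.35%. The number has more levels than the split and takes a larger share by chance alone, so these shares are not directly comparable.

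The first question was which genes differed between G and the pooled reference. Of 30648 genes tested, 101 passed an adjusted p-value of 0.05 in limma with the number as a block, 64 lower in G and 37 higher, and these were 0.330% of the genes tested. The fall of Ahrr was the largest among them, with a log2 fold change of -2.40, and the median of the lower genes was -0.45. The higher genes had a median of 0.42 and a highest value of 0.92, so none of them reached a doubling on the log2(value + 1) scale, while 15 of the lower genes lay under -1. The median over all genes tested was 0.00. B and C did not differ from each other in any gene at the same threshold (limma, 0 genes, 963 or 3.14% at an unadjusted p under 0.05), and all 101 genes had the same sign against B and against C, which share the G samples. Against B alone 2 genes passed (0.00653%) and against C alone 10 (0.0326%).

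The number of calls depended on the block. Without it limma gave 2 genes, Ahrr and Syt12, with 5.93% of genes at an unadjusted p under 0.05, and with the number as a random effect 7, all lower. Single samples also moved the count: it was 16 without G4, 26 without G5, 35 without B1 and 174 without G3, and it was 37, 8 and 2 without the 3 samples numbered 1, 4 and 5. For 38 of the called genes described below the fit was repeated without each of the 18 samples in turn. The 6 that kept their call each time were Ahrr, Syt12, Rtn4rl2, Cyp4b1, Atp2c2 and Lima1. Of the 38 genes, 27 lost the call without G4, 24 without G5 and 12 without B1, and none changed sign.

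**Figure D1:**
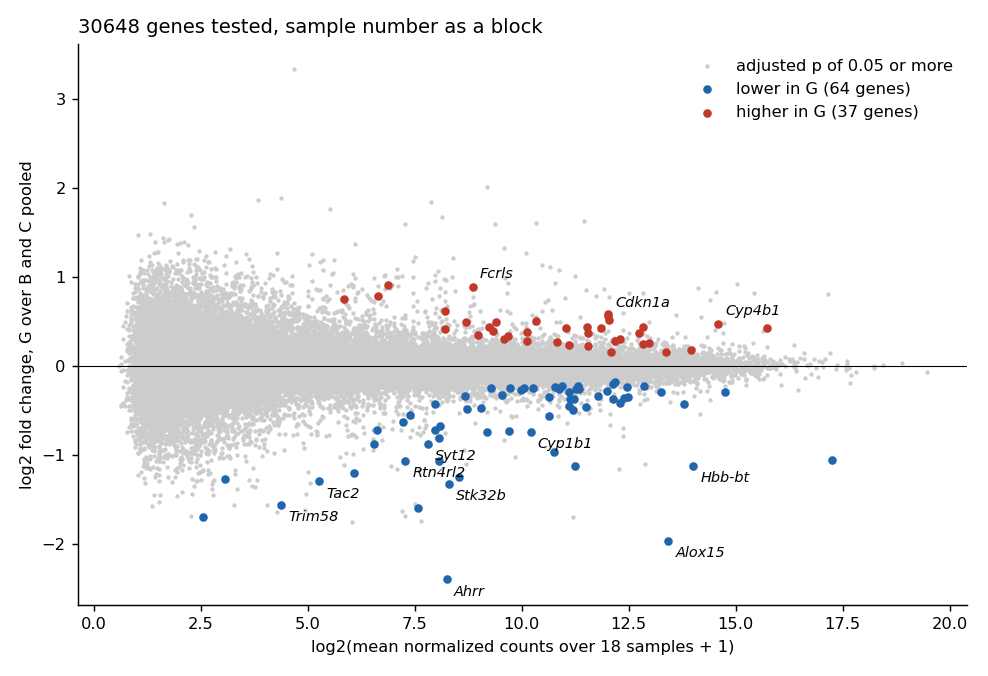
Log2 fold change of G over B and C pooled (vertical) against the log2 mean normalized count over the 18 samples (horizontal) for 30648 genes; coloured points are the 64 lower and 37 higher genes with a limma adjusted p under 0.05. Ahrr lies lowest among the called genes, at -2.40, and all called higher genes lie under 1.

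Among the 101 genes, 5 had all 6 G samples below all 12 samples of B and C (Ahrr, Syt12, Tac2, Enpp2 and Tmprss4, the last named after its values were seen), against 13 genes or 0.0424% of all tested. None of the 37 higher genes had G samples above all 12 others, and 2 genes of all tested did (0.00653%). Within numbers the order was more regular: G was below both B and C in all 6 numbers for 54 of the 64 lower genes, against 0.702% of all genes, and above both in all 6 for 28 of the 37 higher genes, against 0.427%. The test selects genes of this kind, so these counts describe the calls and do not add support.

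Promoters of the AhR genes are shown first, because the capitals mark where the receptor's core element GCGTG occurs on either strand. They are RefSeq sequences of the rat assembly GRCr8, from 250 bases before to 50 after the annotated start, written 5′ to 3′ along the gene. Ahrr is at chr1:30821969-30822268 (+ strand), Cyp1b1 at chr6:21094315-21094614 (+ strand) and Nqo1 at chr19:52220218-52220517 (- strand).
Ahrr: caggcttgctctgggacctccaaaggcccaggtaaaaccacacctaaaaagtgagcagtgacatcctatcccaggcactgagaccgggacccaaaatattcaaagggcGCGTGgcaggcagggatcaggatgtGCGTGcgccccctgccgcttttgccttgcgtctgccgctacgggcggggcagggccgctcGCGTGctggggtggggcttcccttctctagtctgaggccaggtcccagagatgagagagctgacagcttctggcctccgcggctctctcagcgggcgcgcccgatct
Cyp1b1: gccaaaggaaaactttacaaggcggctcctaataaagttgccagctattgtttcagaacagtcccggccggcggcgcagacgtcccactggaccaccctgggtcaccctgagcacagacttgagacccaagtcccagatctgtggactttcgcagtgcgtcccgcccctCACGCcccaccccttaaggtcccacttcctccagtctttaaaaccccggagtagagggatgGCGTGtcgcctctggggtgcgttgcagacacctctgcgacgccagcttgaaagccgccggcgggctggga
Nqo1: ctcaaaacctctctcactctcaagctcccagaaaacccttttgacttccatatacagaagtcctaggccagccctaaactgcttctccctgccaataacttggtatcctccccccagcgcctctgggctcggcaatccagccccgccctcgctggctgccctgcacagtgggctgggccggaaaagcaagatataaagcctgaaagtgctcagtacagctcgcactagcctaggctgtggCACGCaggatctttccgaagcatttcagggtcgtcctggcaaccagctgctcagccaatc

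The Ahrr window holds 3 matches, whose first bases lie 142, 117 and 57 bases before the start. The Cyp1b1 window holds 2, at 81 and 20 bases before it, and the Nqo1 window 1, at 10 bases. The Cyp1a2 window held 0 matches. Of the 15 genes of the AhR lists with a RefSeq promoter, 10 held the core (66.7%), against 29.7% of all 33469 promoters. That share describes the genes chosen for the lists and does not draw on their values in G, B or C. Of the promoters found for called genes, 16 of 44 lower genes (36.4%) and 10 of 25 higher genes (40%) held it. A match is a run of letters and not a measured binding site.

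Ahrr was lower in G than in every sample of B and C. The 6 G samples had 82.5, 83.8, 93.9, 97.8, 45.4 and 58.3 normalized counts in the order of their numbers. The B samples had 342, 321, 445, 630, 536 and 372, and the C samples 259, 228, 286, 553, 512 and 496. G averaged 77.0 ± 20.7 (SD, n = 6) and the reference 415 ± 131 (SD, n = 12), 5.26-fold higher on the log2(value + 1) scale. The log2 fold change was -2.40 (SE 0.19, 95% interval -2.80 to -1.99, limma adjusted p = 2.77e-05). G was below both other letters in 6 of 6 numbers, and the exact permutation test within numbers gave p = 0.00137 (two-sided), the smallest that its 729 arrangements can give and one reached by 0.806% of all genes. The difference within numbers ran from -1.68 in number 2 to -3.50 in number 5. Leaving out any single sample kept the call, with an adjusted p of at most 0.000349.

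The receptor itself did not pass the test. Ahr had 5689 to 8100 normalized counts in G (median 6742), 4126 to 9252 in B (7349) and 3819 to 9507 in C (7978), with a log2 fold change of -0.05 (95% interval -0.27 to 0.16, limma adjusted p = 0.884). Its partner Arnt had a log2 fold change of -0.03 (interval -0.09 to 0.03). Of the 8 genes of the receptor and its partners, 1 was called, Ahrr, against 0.209% of all genes called lower. The median log2 fold change of the 8 was -0.02. Tiparp, an AhR-induced ADP-ribosyltransferase that dampens the receptor, had -0.15 (SE 0.04, limma adjusted p = 0.0782), below both letters in 6 of 6 numbers but with overlapping groups.

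Of 12 AhR target enzymes, 3 fell (Cyp1a2, Cyp1b1 and Nqo1), 0 rose, and 9 did not pass, with a list median of -0.19. The share of all genes called lower was 0.209%. With an unadjusted p under 0.05 (limma), 6 of the 12 were lower and 0 higher, against 6.07% and 5.19% of all genes. The sum of the list in G was below both letters in 6 of 6 numbers. Cyp1b1, a hydrocarbon-oxidizing monooxygenase, had 967, 631, 816, 820, 849 and 693 normalized counts in G. It had 1285, 726, 1890, 2184, 1675 and 918 in B, and 1227, 1106, 1118, 1587, 1559 and 1232 in C. The groups overlap only through B2 and B6, which lay under the highest G sample. The log2 fold change of Cyp1b1 was -0.74 (SE 0.13, limma adjusted p = 0.0213).

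Nqo1, a quinone reductase shared by the AhR and NRF2 programmes, varied little among the G samples, at 2345, 2227, 2173, 2062, 2553 and 2328 normalized counts. B ranged from 2432 to 4312 with B4 highest, and C from 2604 to 3674 with C4 highest. Its log2 fold change was -0.46 (SE 0.08, limma adjusted p = 0.0228), lower than both letters in 6 of 6 numbers, with B2 the only reference sample inside the G range. Cyp1a2 had 70 to 272 normalized counts in G (median 213), 243 to 1005 in B (485) and 291 to 583 in C (315). The groups overlap through B6 alone. Its log2 fold change was -1.25 (SE 0.25, limma adjusted p = 0.0458), and the call was kept in 5 of the 18 fits without 1 sample (adjusted p up to 0.177).

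Cyp1a1, the classical AhR target, did not pass, with a log2 fold change of -1.16 (SE 0.26, limma adjusted p = 0.0672). G had 4160, 4092, 3284, 1956, 1080 and 1921 normalized counts. B had 9354, 4678, 5822, 12273, 5852 and 3106, and C 4059, 4022, 4593, 9198, 5067 and 3953. G1 and G2 lay just above C1 and C2, while G4 and G5 lay far under B and C of the same number, with differences of -2.44 and -2.33. The difference from B and C was thus widest in numbers 4 and 5 for Cyp1a1, and the same numbers gave the widest differences for Cyp1a2 (-1.97 and -2.69), Cyp1b1 (-1.18 and -0.93) and Nqo1 (-0.95 and -0.60). Among the other targets, Aldh3a1 gave -0.05 (interval -0.33 to 0.24) and Cyp2s1 0.07 (interval -0.15 to 0.29). The calls of Cyp1b1 and Nqo1 were lost without G4 and without G5, where the adjusted p reached 0.0789 and 0.0842.

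**Figure D2:**
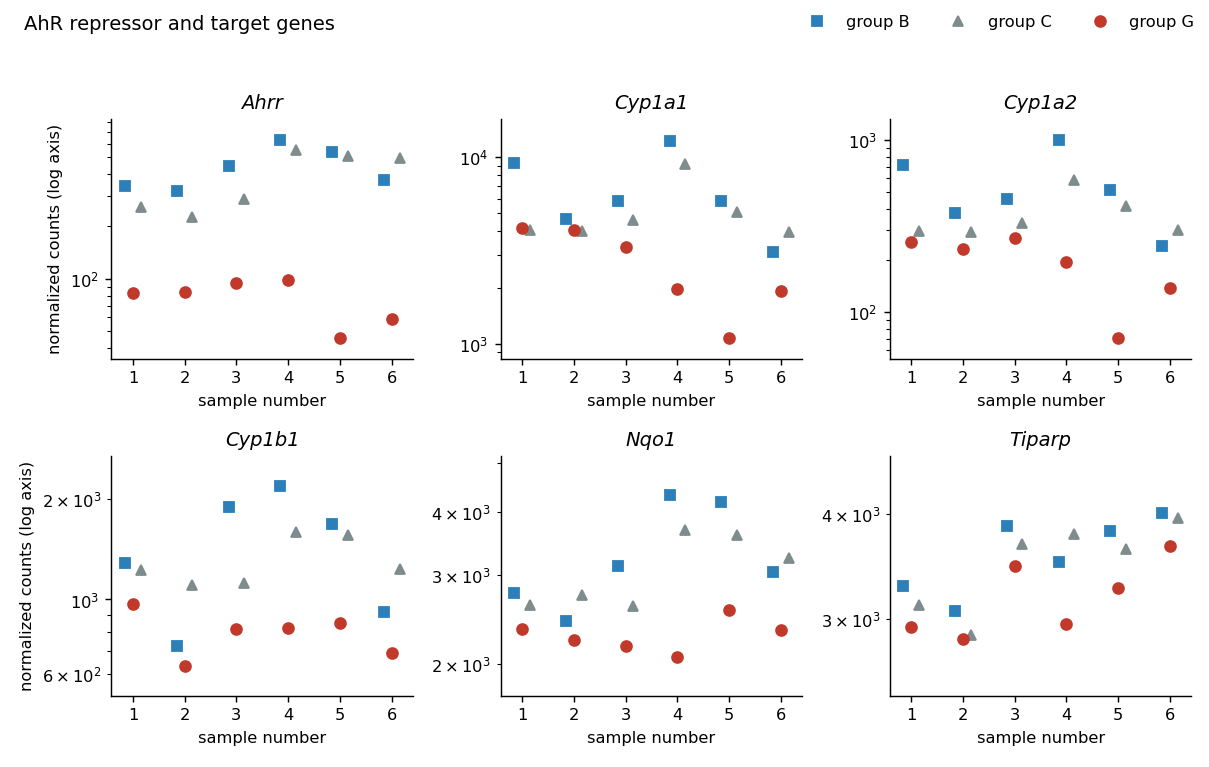
Normalized counts (log axis) of 6 AhR genes by sample number, with squares for B, triangles for C and circles for G. The 6 Ahrr circles lie at 45.4 to 97.8, under all squares and triangles, whereas the Cyp1a1 circles of numbers 1 and 2 lie among them.

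The antioxidant list of NRF2 held 25 genes and did not include Nqo1, an NRF2 target called lower above that was counted with the AhR enzymes. Of these 25, 0 were called in either direction by limma, with 7 lower and 0 higher at an unadjusted p under 0.05. The list median was -0.08, and the shares of all genes at that unadjusted threshold were 6.07% lower and 5.19% higher. Nfe2l2, which encodes NRF2, had a log2 fold change of -0.19 (SE 0.04, limma adjusted p = 0.0705) and the haem oxygenase gene Hmox1 -0.30 (adjusted p = 0.171).

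Beside Ahrr, Syt12 was the gene called both with and without the block. It encodes a synaptotagmin, a family of membrane trafficking proteins. G had 172, 137, 158, 153, 107 and 131 normalized counts. B had 255, 248, 275, 286, 269 and 185, and C had 264, 232, 314, 299, 305 and 215. No G sample reached the lowest reference sample, B6. The log2 fold change was -0.87 (SE 0.09, limma adjusted p = 0.000878), and the call held in each of the 18 fits without a single sample (adjusted p at most 0.00809). Of the 16 synaptotagmin genes measured, Syt12 was the only one called, against 0.209% of all genes called lower.

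Rtn4rl2, a gene of the Nogo receptor family, fell by a log2 value of 1.06 (SE 0.13, limma adjusted p = 0.00333), with 67.4 to 110 normalized counts in G, 97 to 294 in B and 108 to 292 in C. Tac2, a tachykinin precursor gene, was low in all samples but did not overlap, at 11.99 to 21.4 in G, 26 to 56 in B and 28 to 73 in C. Stk32b, a serine/threonine kinase gene, differed mainly in numbers 3 to 6. It had 305 and 290 normalized counts in G1 and G2, inside the reference range, and 94.6 to 147 in G3 to G6, against 282 to 503 in B and C. Its log2 fold change was -1.32 (SE 0.21, limma adjusted p = 0.0195).

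The remaining lower genes of the naming rule had smaller changes. Enpp2, which encodes autotaxin, the enzyme that makes lysophosphatidic acid, had 10787 to 12168 normalized counts in G and 12554 to 19162 in B and C, a log2 fold change of -0.43 (SE 0.07, limma adjusted p = 0.0180). Lpl, lipoprotein lipase, had -0.28 and Lepr, the leptin receptor, -0.56 (adjusted p = 0.0195 each). The organic cation transporter gene Slc22a3 had -0.67 and the zinc and manganese importer gene Slc39a8 -0.35 (adjusted p = 0.0195 each). Atp2c2, a calcium and manganese pump of the secretory pathway, had -0.37 (adjusted p = 0.0114), the receptor phosphatase gene Ptpru -0.44 (adjusted p = 0.0166) and the actin-binding gene Lima1 -0.33 (adjusted p = 0.0180). Each was below both letters in 6 of 6 numbers except Slc39a8, which was in 5.

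The highest-ranked of the higher genes was Cyp4b1, a cytochrome P450 abundant in lung that oxidizes fatty acids and foreign compounds. G had 26702, 22708, 33474, 36578, 31601 and 31223 normalized counts. B had 19920, 17376, 22297, 24406, 22022 and 29459, and C 21578, 15516, 19569, 22320, 21258 and 27468. G lay above both in 6 of 6 numbers, although G1 and G2 were under B6. The log2 fold change was 0.47 (SE 0.06, limma adjusted p = 0.00333), 1.39-fold. The row named Cyp4b1-ps2, a pseudogene with 407 to 1084 normalized counts, gave 0.49, and how reads shared between the copies were counted is not given in the sources used here, so these rows are not independent. Of 11 lung P450 and flavin monooxygenase genes measured, Cyp4b1 was the only one called, against 0.121% of all genes called higher. The club cell P450 Cyp2f2 had a log2 fold change of 0.55 (SE 0.21, limma adjusted p = 0.311).

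Other called higher genes came from several functions. Ppp1r1b, a protein phosphatase inhibitor, had a log2 fold change of 0.44 (SE 0.06, limma adjusted p = 0.0165), and the sodium channel subunit gene Scn3b 0.52 (adjusted p = 0.0180). Scn3b stood at 9660 and 8409 normalized counts in G1 and G2 and at 2963 to 3231 in the other G samples, a step that B and C shared. Kl, which encodes klotho, had 0.43, the growth factor gene Pdgfd 0.50, the Myc family gene Mycl 0.34, Banp 0.37, Arl4d 0.30, Zmynd15 0.29 and the primary cilium gene Cys1 0.35, with adjusted p-values of 0.0195 to 0.0249. The scavenger receptor-like gene Fcrls had 0.89 (SE 0.15, limma adjusted p = 0.0195). It was highest in number 2 of each letter, at 2070 normalized counts in G2, 1232 in B2 and 853 in C2, against 139 to 511 elsewhere.

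**Figure D3:**
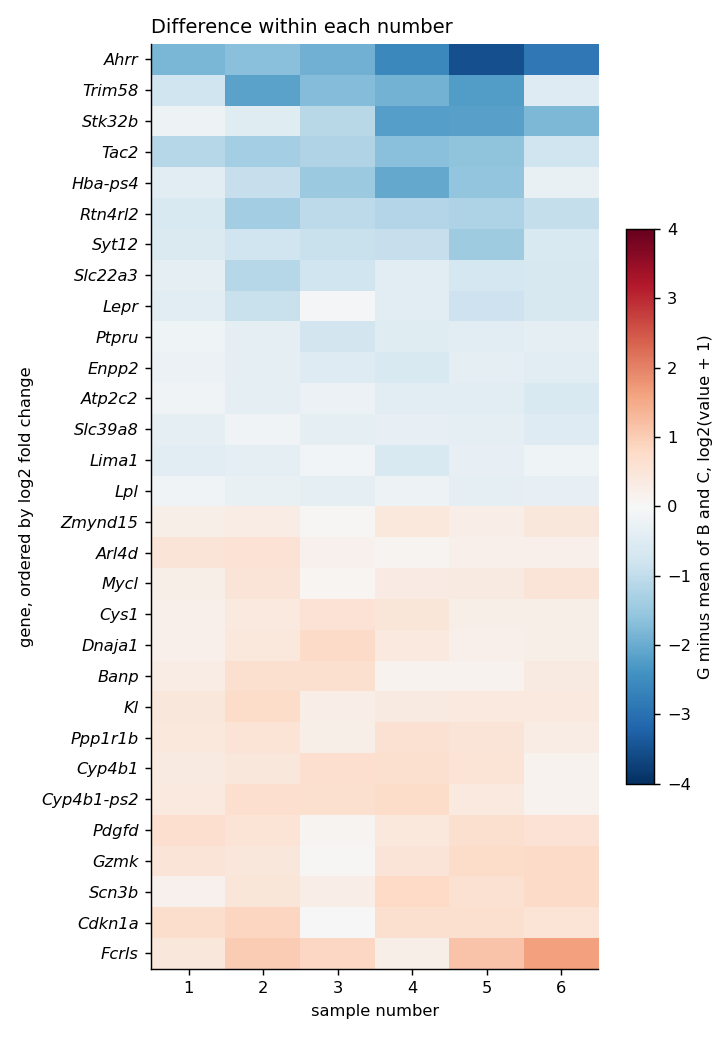
Difference between the G sample and the mean of the B and C samples of the same number (colour, on log2(value + 1)) for the 15 lower and 15 higher named genes (rows) in numbers 1 to 6 (columns). Ahrr is at -1.68 or lower in each number, and Stk32b changes from -0.20 in number 1 to -2.20 in number 4.

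Heat shock chaperones fold other proteins and are switched on by heat shock factor at elements that hold the letters GAANNTTC. The list of 14 measured genes also holds co-chaperones and Hsf1, the gene of a heat shock factor itself. Of the 14, 2 rose, Dnaja1 and Hsph1, 0 fell, and all had a positive log2 fold change with a median of 0.22. Of all genes, 0.121% were called higher and 50.6% had a positive value. In the list 7 were higher and 0 lower at an unadjusted p under 0.05 (limma), against 5.19% and 6.07% of all genes. The promoters of Dnaja1 and Hsph1 are printed from RefSeq, assembly GRCr8, with matches to GAANNTTC in capitals (Dnaja1 at chr5:60638154-60638453 (+ strand), Hsph1 at chr12:10427118-10427417 (+ strand)).
Dnaja1: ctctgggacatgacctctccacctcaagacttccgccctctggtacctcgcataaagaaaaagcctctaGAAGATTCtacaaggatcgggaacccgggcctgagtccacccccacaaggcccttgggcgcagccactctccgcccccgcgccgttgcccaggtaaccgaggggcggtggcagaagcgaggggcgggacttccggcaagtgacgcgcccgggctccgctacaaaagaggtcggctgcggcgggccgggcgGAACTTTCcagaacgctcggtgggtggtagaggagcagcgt
Hsph1: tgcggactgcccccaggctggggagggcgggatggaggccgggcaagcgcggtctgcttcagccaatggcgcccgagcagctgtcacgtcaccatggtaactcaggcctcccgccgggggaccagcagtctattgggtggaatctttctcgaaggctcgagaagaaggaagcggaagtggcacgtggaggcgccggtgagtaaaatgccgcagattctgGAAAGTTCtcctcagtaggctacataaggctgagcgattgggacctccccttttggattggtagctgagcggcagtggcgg

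Of the 11 genes of this list with a RefSeq promoter, 9 held this motif (81.8%), against 8.59% of all promoters and 5 of 25 called higher genes (20%). The share in the list describes the genes chosen for it and does not draw on their values in G, B or C. A match is a run of letters and not a measured binding site. In Dnaja1 the matches begin 181 bases before and 9 bases after the start, and in Hsph1 the match begins 31 bases before it. Dnaja1, an HSP40 co-chaperone, had 6423, 8832, 8077, 11689, 7527 and 5688 normalized counts in G. It had 5471, 7091, 4621, 8894, 6626 and 4507 in B, and 5615, 6166, 4827, 8979, 6427 and 5099 in C. All letters were highest in number 4 and G was above both in 6 of 6 numbers, with a log2 fold change of 0.37 (SE 0.06, limma adjusted p = 0.0195). Hsph1, an HSP110 chaperone, gave 0.44 (SE 0.08, adjusted p = 0.0336), a call kept in 7 of the 18 fits without 1 sample (adjusted p up to 0.126). The strongly heat-inducible Hspa1b gave 0.50 with a wider interval (-0.05 to 1.05, adjusted p = 0.492).

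Of 24 glucocorticoid responsive genes, 2 rose, Cdkn1a and Fam107a, and 0 fell, against 0.121% of all genes called higher. A positive log2 fold change was found for 19 of the 24, against 50.6% of all genes, and the median was 0.22. In limma 11 were higher and 0 lower at an unadjusted p under 0.05, against 5.19% and 6.07% of all genes. Cdkn1a encodes the cell cycle inhibitor p21 and is also a p53 target. It had 3977 to 6113 normalized counts in G (median 5270), 2908 to 6874 in B and 2378 to 5265 in C, and a log2 fold change of 0.57 (SE 0.09, limma adjusted p = 0.0195). B3, at 6874, was above every G sample, and G was above both letters in 5 of 6 numbers. Fam107a, an actin-binding stress gene, had 0.39 (SE 0.07, adjusted p = 0.0249), lost without G2, G4, G5 or B1. Tsc22d3, a glucocorticoid-induced leucine zipper gene, gave 0.48 (adjusted p = 0.133), Klf9 0.33 (adjusted p = 0.134) and the receptor co-chaperone gene Fkbp5 0.09 (interval -0.54 to 0.71). Of 21 p53 and DNA damage targets Cdkn1a was the only one called, and the list median was 0.02.

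The EGF receptor list had 0 of 23 genes called, with 7 lower and 2 higher at an unadjusted p under 0.05, against 6.07% and 5.19% of all genes. Errfi1, a feedback inhibitor of that receptor, did not pass, with a log2 fold change of 0.58 (SE 0.12, limma adjusted p = 0.0573). It had 12310 to 17971 normalized counts in G, 7456 to 17002 in B and 6530 to 13251 in C. Sema7a had 0.36 (adjusted p = 0.206). Spry2, another feedback inhibitor, had -0.24 (adjusted p = 0.0625). Of 19 fasting and FOXO genes 0 were called, with 7 higher and 2 lower at an unadjusted p under 0.05, against 5.19% and 6.07% of all genes. Arrdc3, an arrestin-domain gene of that list, gave 0.37 (adjusted p = 0.106). Of 18 NF-kB targets 0 were called, with 11 negative values, against 49.4% of all genes, 7 positive and a median of -0.04. Nfkbia, the NF-kB inhibitor, gave 0.49 (adjusted p = 0.214).

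Clock genes did not pass in either list. The first list includes Arntl, Clock and Npas2, which drive clock transcription, the activating receptor gene Rora, and also the repressors Nfil3 and Cry1. All 7 had positive log2 fold changes, against 50.6% of all genes, with a median of 0.27. Of the 7, 5 had an unadjusted p under 0.05 (limma), against 5.19% of all genes higher (Arntl, Npas2, Nfil3, Rora and Cry1). Rora gave 0.26 (limma adjusted p = 0.0555) and Arntl 0.37 (adjusted p = 0.139). Of the 14 genes of the second list, which holds the Per genes, other repressors and output genes, 10 were negative, against 49.4% of all genes. Its median was -0.17, with 6 lower and 1 higher at an unadjusted p under 0.05 (limma), against 6.07% and 5.19% of all genes. Dbp, a strongly rhythmic output gene, had 354 to 577 normalized counts in G, 380 to 3198 in B and 438 to 3617 in C, and gave -1.02 (adjusted p = 0.102). Its difference was -0.15 in number 2 and -2.79 in number 4. The labels give no time of day, so its part in any result was not tested.

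**Figure D4:**
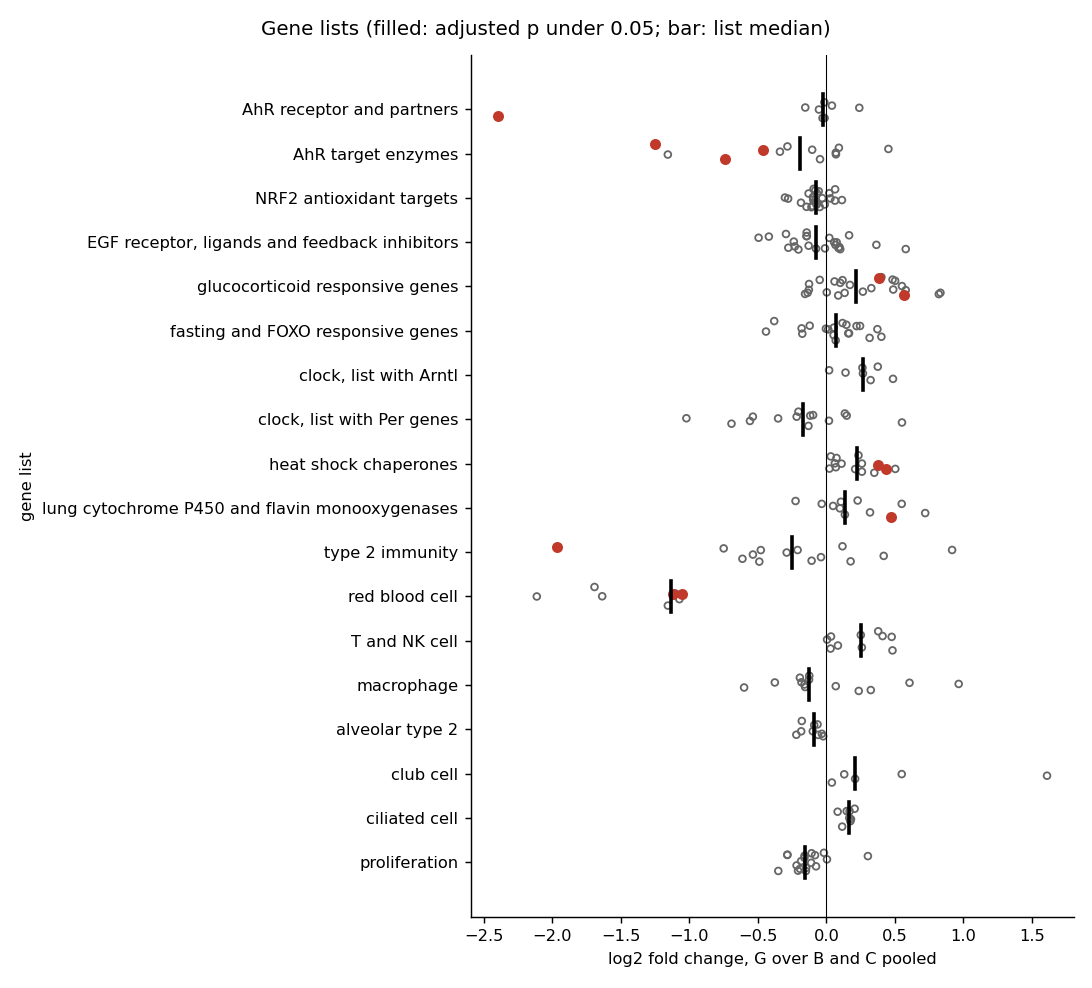
Log2 fold change of G over B and C pooled (horizontal) for the members of 18 gene lists (rows); filled points passed a limma adjusted p of 0.05, open points did not, and bars are list medians. The red blood cell list has the lowest median, -1.14, and the AhR lists hold 4 of the called points.

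Of 8 red blood cell genes measured, 2 fell in G, the globin genes Hbb-bt and Hba-a1, against 0.209% of all genes called lower, and 6 did not pass. In bulk tissue fewer cells of a type and less RNA per cell cannot be told apart. All 8 had a negative value with an unadjusted p under 0.05, against 6.07% of all genes, and a median of -1.14. Among those that did not pass, the globin gene Hba-a2 had the lowest value, -2.11, with the widest interval (-3.65 to -0.58, limma adjusted p = 0.250), and its G3 sample, at 22661 normalized counts, lay above B3 and C3 while G was below both in 4 of 6 numbers. The list summed to 126144 to 313766 normalized counts in G, 192536 to 869031 in B and 161994 to 774189 in C, and G was below both in 5 of 6 numbers. Hbb-bt had 7692, 5846, 6686, 6853, 9489 and 14262 normalized counts in G. B had 9949, 8689, 11732, 42691, 24947 and 18859, and C 7203, 11434, 17325, 34812, 35073 and 23852. Number 1 hardly differed and number 4 differed most, by -0.14 and -2.49. The log2 fold change of Hbb-bt was -1.12 (SE 0.21, limma adjusted p = 0.0348). The call held in 7 of the 18 fits without 1 sample for Hbb-bt (adjusted p up to 0.114) and in 5 for Hba-a1 (up to 0.128).

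The haem synthesis gene Alas2, specific to red cell precursors, gave -1.10 (SE 0.23, limma adjusted p = 0.0573) and did not pass. Trim58, a ubiquitin ligase gene of late red cell precursors, passed at low levels, with 3.2 to 14.1 normalized counts in G and 6 to 56 in B and C (log2 fold change -1.56, adjusted p = 0.0195). The globin pseudogene row Hba-ps4 gave -1.13 (adjusted p = 0.0195). Globin genes and pseudogenes are near copies, so the split of reads among them is uncertain. The part of blood content in the other lower genes was not tested.

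Among the 101 called genes Alox15 had the lowest log2 fold change after Ahrr. It encodes a 12/15-lipoxygenase, which makes lipid mediators from arachidonic and linoleic acid. G had 2710, 1466, 2767, 1949, 2867 and 4128 normalized counts. B had 4312, 2865, 8757, 49083, 18724 and 6832, and C 3340, 4518, 13272, 40089, 23405 and 6341. The reference samples spread 17.1-fold from lowest to highest, with number 4 at the top in each letter, while the G samples spread 2.82-fold with G4 second lowest. The log2 fold change was -1.97 (SE 0.36, limma adjusted p = 0.0296), below both letters in 6 of 6 numbers, and the difference ran from -0.49 in number 1 to -4.51 in number 4. The call was lost without any of G4, G5, B1, B5, C4 or C5 (adjusted p up to 0.0982), and without the block the adjusted p was 0.540. In the type 2 immunity list, 1 of 14 genes fell, Alox15, and 0 rose, against 0.209% and 0.121% of all genes. The list had 10 negative and 4 positive values and a median of -0.25. At an unadjusted p under 0.05 (limma), 4 were lower and 1 higher, against 6.07% and 5.19% of all genes. The chemokine gene Ccl17 gave 0.92 (adjusted p = 0.0672) and the chitinase gene Chia1 -0.54 (adjusted p = 0.133).

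**Figure D5:**
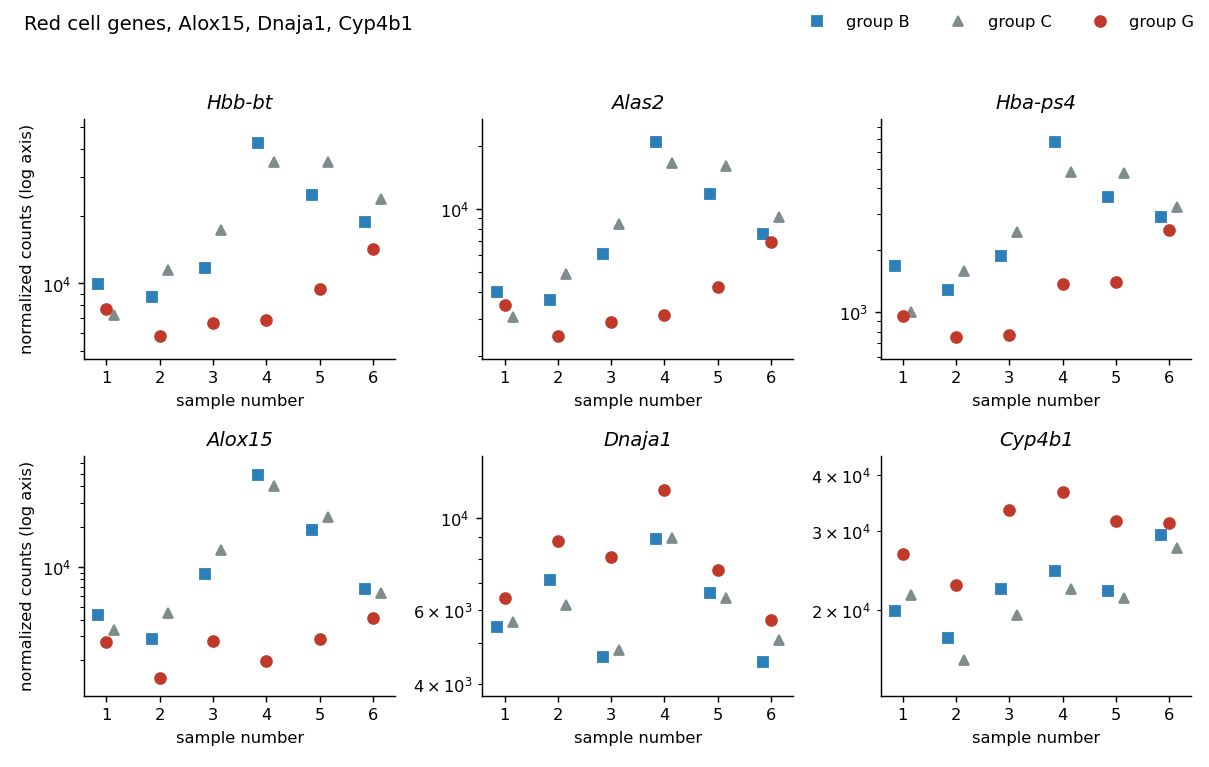
Normalized counts (log axis) of 6 genes by sample number, with squares for B, triangles for C and circles for G. For Hbb-bt and Alox15 the squares and triangles peak in numbers 4 and 5, at up to 42691 and 49083, while the circles stay at or under 14262 and 4128; Dnaja1 and Cyp4b1 circles lie above both letters in each number.

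Markers of other lung cell types were not called as lists. T and NK cell markers had 0 of 10 called and 5 higher at an unadjusted p under 0.05, against 5.19% of all genes, with a median of 0.25 and sums of 9613 to 22669 in G, 10276 to 16122 in B and 9733 to 17946 in C. Outside that list Gzmk, a granzyme of cytotoxic lymphocytes, rose by a log2 fold change of 0.51 (SE 0.09, limma adjusted p = 0.0249; lost without G1, G4, G5, G6, B1 or B5), from 852 to 1957 normalized counts in B and C to 903 to 2762 in G. Gzma gave 0.48 (adjusted p = 0.0652) and Prf1, perforin, 0.41 (adjusted p = 0.0693). Macrophage markers had 0 of 13 called, with 8 negative values, against 49.4% of all genes, 5 positive and a median of -0.13. At an unadjusted p under 0.05 (limma), 3 were higher and 0 lower, against 5.19% and 6.07% of all genes. The sum of the list in G was below both letters in 5 of 6 numbers. The macrophage elastase gene Mmp12 gave 0.97 with a large error (SE 0.29, adjusted p = 0.180). G2 stood at 1797 normalized counts of Mmp12 and the other G samples at 161 to 267.

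No epithelial or structural cell list had a called gene. Of all genes tested only 0.330% were called, so 0 calls in short lists do not show that these cell types were unchanged. All 9 alveolar type 2 markers had negative values, against 49.4% of all genes, with a median of -0.09. Of these, 3 were lower at an unadjusted p under 0.05 (limma), against 6.07% of all genes, and 0 were called. Sftpb gave -0.18 (SE 0.05, limma adjusted p = 0.135). All 8 ciliated cell markers had positive values, against 50.6% of all genes, with a median of 0.17, and 0 were called. Capillary endothelium (median 0.07), smooth muscle (0.10), fibroblast (0.05), alveolar type 1 (-0.00) and basal and squamous (-0.03) lists had 0 called each, as did the 18 proliferation genes (median -0.15) and the 16 extracellular matrix genes (median 0.05). The club cell (0.21), neutrophil (0.26), mast cell (0.15), B and plasma cell (0.13), lymphatic endothelium (-0.10), mesothelium (-0.30), adipocyte (0.22), interferon response (-0.06), immediate early (-0.09) and sterol synthesis (-0.10) lists had these medians and 0 called each. Skeletal muscle markers summed to 19753 normalized counts in B4 and to at most 2799 in C and 2626 in G, and 0 were called. All 7 cardiac muscle markers had positive values, against 50.6% of all genes, with a median of 0.67. Of these 7, 0 were called or at an unadjusted p under 0.05 (limma). Their sums ranged from 828 to 26467 in G, 1180 to 9224 in B and 820 to 10336 in C.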

How the data were processed

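Lung mRNA was sequenced in 24 rat samples, of which 18 were used. The authors deposited normalized counts per gene (a signal, not raw reads). STAR and the mouse genome build GRCm38 are named, with no role given, per the submitters' processing notes, although the samples are rat. Row names are mouse-style symbols, and 52.6% of the tested names match a symbol of the rat RefSeq table (assembly GRCr8), 87 of the 101 called genes among them. Counting tool, annotation and normalization are not given in the sources used here, so the effect of cross-species alignment on a gene's level was not tested. Levels are not per length and are not compared between genes. Low values lay close to whole numbers with offsets that differed by gene, so count models were not used. This is the branch of the design for normalized values.

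limma 3.58.1 (R 4.3.3) with a mean-variance trend was fitted to log2(value + 1) for genes averaging 0.5 or more in these 18 columns (19 genes removed), with the terms number and G. P-values are two-sided and Benjamini-Hochberg adjusted over 30648 genes. Fold changes are on that log2 scale and understate low genes. B, C and G means were fitted separately for the contrasts between single letters. The script was tested on simulated data. Genes named are the 15 lower and 15 higher called genes of smallest p outside clone and gene-model names, 14 genes set by name and up to 4 members per list of smallest p; other members are named to describe a list. The comparison, genes and lists were chosen with earlier results of these data known. Alternatives covered the block, the reference, the pseudocount, the filter, scaling, weights and left-out samples.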

Additional observations from a re-analysis of the deposited data

Results flagged for a closer look

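In groups of 6 samples, the highest or lowest value is given here where Dixon's test at the 95% level set it apart from the other samples. This held for 14 of 120 groups of gene values, where chance gives about 6.

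Of the 14, 7 were samples numbered 2: Fcrls at 2070 normalized counts in G2 (next sample 511), 1232 in B2 (241) and 853 in C2 (338), Mycl at 1560 in G2 (1025) and 1180 in B2 (793), and Mmp12 at 1797 in G2 (267) and 857 in B2 (141). Gzmk was high in number 6, at 2762 in G6 (1572) and 1957 in B6 (1226). In number 4, Cyp1a1 reached 9198 in C4 (5067) and Banp 3986 in B4 (2614). Cdkn1a reached 6874 in B3 (3830), above all G samples. Hba-ps4 reached 2498 in G6 (1401), and Tac2 was lowest in G3 at 11.99 (18.1). Whether the numbers mark shared animals, days or batches is not stated in the labels.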

How the results depend on the processing

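The labels do not say that equal numbers mark related samples. Deviations of samples from their letter's mean (21874 genes averaging 10 or more) correlated at 0.09 to 0.51 for the 6 same-number pairs of G and B, 0.02 to 0.44 for G and C, and 0.13 to 0.60 for B and C. The limit of 0.1 was missed by number 4 in both G pairings and by number 2 in G and C. By this limit the numbers are therefore not shown to pair the samples. Of the 6 G samples, 5 correlated best with the B sample of their own number, and 4 with the C sample of their own number. With no replicate block 2 genes passed (0 higher, 2 lower), with 1 against B alone and 2 against C alone. With the replicate block as a correlation 7 passed (0 higher, 7 lower), and 3 against C alone. A fit to G and B only gave 1 (0 higher, 1 lower), and a fit to G and C only 0 (0 in each direction, 2318 at an unadjusted p under 0.05), with Ahrr at -2.28 and an adjusted p of 0.084. These fits have fewer samples. All 24 samples gave 43 (15 higher, 28 lower). Leaving out numbers 4 and 5 together, chosen after seeing the data, gave 2 (1 higher, 1 lower), 1 against B alone and 0 against C alone; Ahrr kept its call at -2.07 (adjusted p = 0.00631). Robust empirical Bayes gave 4 against B alone and 20 against C alone, and array weights 4 against B alone.

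Leaving out 1 sample gave 16 to 174 genes (5 to 83 higher, 11 to 91 lower), 1 to 20 against B alone and 2 to 58 against C alone. Leaving out all samples of 1 number gave 2 to 145 genes (0 to 69 higher, 2 to 76 lower), with 37 (8 higher, 29 lower) without number 1, 8 (4 higher, 4 lower) without number 4 and 17 higher without number 6, 1 to 6 against B alone and 1 to 29 against C alone. C against B gave 0 genes in each fit. B and C as separate levels gave 83 genes, and the other pseudocounts, filters, scalings and variance settings 90 to 119. All genes called in the main comparison and tested kept their sign in each of the 39 alternatives, 7 of the 101 kept their call with the block as a correlation and 2 without it. For 46 named genes, 1349 of 1794 values stayed on their side of the threshold, 432 lost the call, 13 gained it and 0 changed sign. No count model was run, since reads could not be recovered. Causes of these changes were not tested.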

Other observations

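Group A, which the comparison left out, gave values for the same genes. Ahrr had 268 to 583 normalized counts in A (median 345), within or near the range of B and C (228 to 630) and above all G samples. Syt12 had 182 to 316 (median 232) and Alox15 3097 to 48612. Errfi1 lay lower in A than in most other samples, at 4183 to 8315 (median 6646), against 6530 to 17002 in B and C and 12310 to 17971 in G. Arrdc3 had 11225 to 21922 in A, 17950 to 32194 in B and C and 23215 to 39875 in G, and Nfkbia 11949 to 20456, 13621 to 38187 and 23870 to 44172. For these 3 genes B and C lay between A and G in their medians, and neither order was tested here.

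Further called genes, chosen after their values were seen, include the endothelial tight junction gene Cldn5, with a log2 fold change of 0.43 (SE 0.09, limma adjusted p = 0.0458), above both letters in 5 of 6 numbers. Robo4, also an endothelial gene, went the other way, with -0.36 (SE 0.07, limma adjusted p = 0.0306). It was below both letters in 6 of 6 numbers. The red cell genes Hemgn (-1.59, adjusted p = 0.0327), Hbb-bh3 (-1.20, adjusted p = 0.0348) and Tspo2 (-1.70, adjusted p = 0.0476) fell as well, Tspo2 from at most 22 normalized counts.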
